A study of Mus musculus with 4 samples.

Results

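Immature granule-rich neutrophils were taken here as cells rich in S100a8 and S100a9 RNA that also carried the granule transcripts Camp, Ngp and Ltf. A barcode was kept as a cell if it had 500 or more unique molecular identifiers (UMIs, counted RNA molecules), 300 or more genes and no more than 10% of UMIs from mitochondrial genes. Kept cells with at least 3% of UMIs from S100a8 and S100a9 were called S100-rich, and those with at least 5 UMIs of Camp, Ngp and Ltf together were called granule-rich. The cells were thus chosen by their measured S100a8, S100a9, Camp, Ngp and Ltf UMIs. The rule gave 321 granule-rich cells among 960 S100-rich cells and 14411 kept cells, and 311 of the 321 lay in 1 library.

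The libraries came from perfused and digested whole lungs of mice with orthotopically implanted small cell lung cancer (SCLC), sorted for live cells and made into 3' single-cell RNA libraries. Control mice received vehicle and isotype IgG. The other mice received anti-PD-1 (clone 29F.1A12, 200 µg per mouse, 3 times a week), YKL-5-124 (10 mg/kg daily from Monday to Friday), or both agents, called the combination. YKL-5-124 inhibits the kinase CDK7, and anti-PD-1 blocks an inhibitory receptor of T cells. Every group carried the same kind of tumour and had 1 library. The sources used here do not give how many animals made up a library or how long they were treated. No value therefore has an error between animals and no test was run: every interval is a 95% interval that covers counting error only.

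Neutrophils mature in the bone marrow and load their granules in a fixed order. Primary granule proteins such as myeloperoxidase and elastase come first, secondary granule proteins such as lactoferrin and cathelicidin follow, and tertiary granule proteins such as gelatinase come last. Granule transcripts then fade, while receptors such as Cxcr2 and Csf3r and inducible genes such as Il1b mark the mature cell. The transcription factor C/EBP epsilon, encoded by Cebpe, is needed for the secondary granule programme.

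Camp encodes the antimicrobial peptide cathelicidin, Ngp the neutrophilic granule protein and Ltf the iron-binding protein lactoferrin. All 3 genes lie on mouse chromosome 9 in GENCODE M21 (GRCm38): Camp at chr9:109847379-109849617 on the minus strand, Ngp at chr9:110419747-110423012 and Ltf at chr9:111019271-111042767, both on the plus strand. The gap was 570 kb from Camp to Ngp and 596 kb from Ngp to Ltf. Chil3, a chitinase-like lectin and the gene that led those outside the rule, lies at chr3:106147554-106167564 on the minus strand. The sequences just upstream of these genes are shown as description only. The rule chose the cells by Camp, Ngp and Ltf together, so their shared high levels support nothing about shared control. They are RefSeq sequence (GRCm38.p6), 5′ to 3′ on the gene's strand, and stop before the outermost transcript start in either annotation. Capitals mark TTNNGNAA, a short form of the C/EBP motif, on either strand (TTNCNNAA when read in reverse). No matches overlapped.
Camp upstream, chr9:109849618-109849706, minus strand: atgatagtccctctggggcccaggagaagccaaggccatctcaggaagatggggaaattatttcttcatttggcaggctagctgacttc
Ngp upstream, chr9:110419558-110419746, plus strand: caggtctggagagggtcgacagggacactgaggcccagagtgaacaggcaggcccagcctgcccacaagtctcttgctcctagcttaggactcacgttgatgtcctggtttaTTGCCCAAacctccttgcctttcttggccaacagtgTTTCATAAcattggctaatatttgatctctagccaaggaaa
Ltf upstream, chr9:111019042-111019270, plus strand: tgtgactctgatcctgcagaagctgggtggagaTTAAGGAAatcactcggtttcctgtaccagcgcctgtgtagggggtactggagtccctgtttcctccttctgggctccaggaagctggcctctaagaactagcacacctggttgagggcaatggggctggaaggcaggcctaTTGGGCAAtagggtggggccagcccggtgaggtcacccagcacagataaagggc
Chil3 upstream, chr3:106167565-106167814, minus strand: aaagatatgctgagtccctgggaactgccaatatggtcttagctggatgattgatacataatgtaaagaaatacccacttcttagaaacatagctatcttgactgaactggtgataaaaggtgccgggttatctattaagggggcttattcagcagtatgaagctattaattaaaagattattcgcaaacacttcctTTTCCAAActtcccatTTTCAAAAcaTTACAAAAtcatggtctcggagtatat
Ngp and Ltf each held 2 matches, Chil3 held 3, and the 89 bases of Camp held 0. Among 32851 RefSeq promoters, stretches of the same length and position held a match in 16.7% for Camp, 31.1% for Ngp, 35.0% for Ltf and 36.8% for Chil3. A match is a run of letters and was not tested as a binding site.

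Between 17329001 and 22950622 UMIs were counted per library, and 2736 to 4152 cells were kept with median depths of 1939 to 2239 UMIs. The libraries shared cell barcodes. Of the kept cells, 544 of 3481 in control, 619 of 2736 under anti-PD-1, 523 of 4152 under YKL-5-124 and 565 of 4042 in the combination had a barcode that was kept in another library too. This touched 2 of the 311 granule-rich cells under YKL-5-124 and 0 of the 10 in the combination, and none of these barcodes was S100-rich elsewhere. The barcodes of the granule-rich cells under YKL-5-124 held a median of 1.95% to 2.31% as many UMIs in the other libraries. Without the shared barcodes, 309 and 10 granule-rich cells remained.

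With YKL-5-124, 311 of 4152 cells were granule-rich, a share of 7.49% (6.71% to 8.33%, exact binomial). The combination had 10 of 4042 cells, or 0.247% (0.119% to 0.455%). Control had 0 of 3481 cells and anti-PD-1 0 of 2736, with exact upper limits of 0.106% and 0.135%. A count of 3 cells would be 0.0862% and 0.110%. The share under YKL-5-124 was thus 30.3-fold that of the combination (16.2 to 63.8). It was 86.9-fold the share that 3 cells would give in control, and 68.3-fold that under anti-PD-1. No interval was computed for the ratios to control and anti-PD-1. These shares are of sequenced cells, and a share can move with the number of any other cell type in the same lung.

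S100-rich cells were themselves more frequent under YKL-5-124. They numbered 78 in control, 72 under anti-PD-1, 663 under YKL-5-124 and 147 in the combination. Granule-rich cells made up 46.9% (43.1% to 50.8%) of them under YKL-5-124 and 6.80% (3.31% to 12.2%) in the combination. The other S100-rich cells, those under 5 granule UMIs, took 8.48% of kept cells under YKL-5-124, 2.24% in control, 2.63% under anti-PD-1 and 3.39% in the combination. Even these others were 3.78-fold (2.95 to 4.90) more frequent under YKL-5-124 than in control.

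Granule RNA was also found among these other cells. Of them, 39.2% had at least 1 UMI of Camp, Ngp or Ltf under YKL-5-124, against 2.56% in control, 2.78% under anti-PD-1 and 12.4% in the combination. Cells that should lack these genes gave a lower share in the same library: 9.77% of 788 cells with B cell markers had such a UMI, at a median of 1535 UMIs per cell against 1341.5 in the other S100-rich cells. Of those B cell marker-bearing cells 1 reached 5 granule UMIs. In barcodes of 10 to 100 UMIs, Camp, Ngp and Ltf made 1560 UMIs per 1e6 (CPM) under YKL-5-124 and 449 in control. The values were 568 CPM under anti-PD-1 and 461 CPM in the combination. In control, however, 1 of 753 cells with B cell markers had a granule UMI. Barcodes of granule-rich cells under YKL-5-124, with a median of 1.95% as many UMIs in control, were not left out of this range. How much of this RNA was free was not tested. After every cell was thinned to 800 UMIs before the rule, 249 of 639 S100-rich cells (39.0%) were granule-rich under YKL-5-124, 9 of 141 (6.38%) in the combination and 0 in the remaining libraries.

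**Figure D1:**
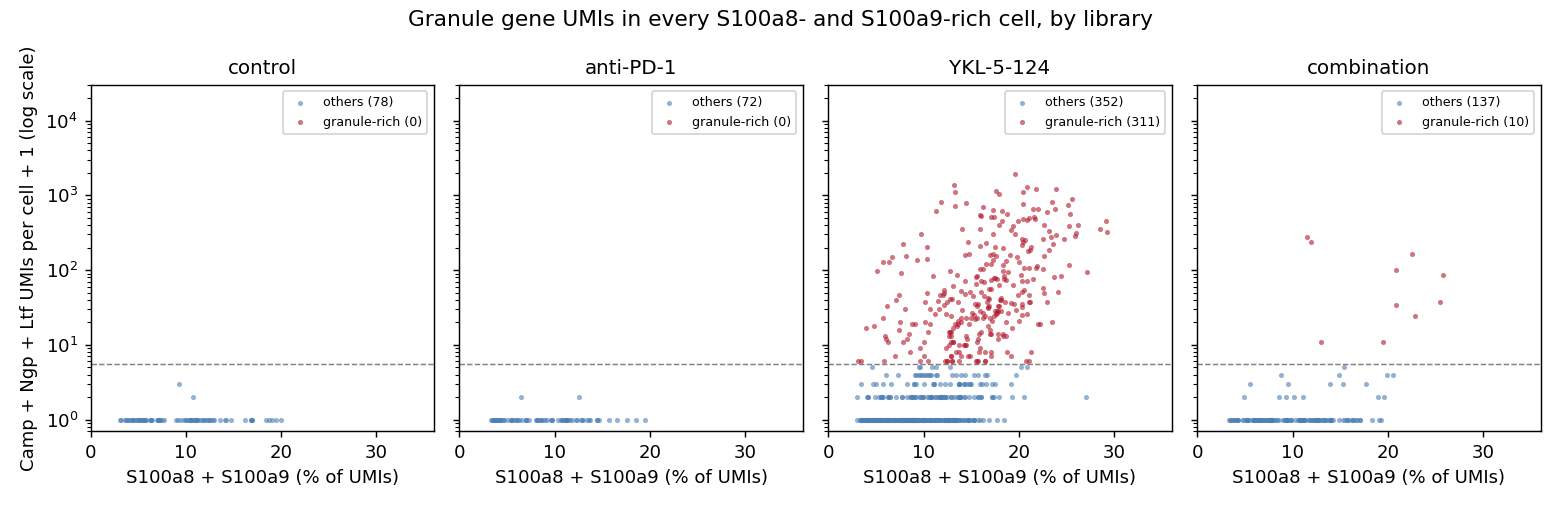
UMIs of Camp, Ngp and Ltf plus 1 (log scale) against the share of UMIs from S100a8 and S100a9 for every S100-rich cell, 1 panel per library; the dashed line is the minimum of 5 UMIs. Red points above the line number 311 under YKL-5-124, 10 in the combination and 0 in each of the remaining libraries.

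Of the 16 fixed neutrophil markers, 5 are genes of the rule (S100a8, S100a9, Camp, Ngp and Ltf), whose presence it sets. The other 11 also had UMIs in the granule-rich cells, from 343 CPM for Csf3r to 39236 CPM for Retnlg. Lymphocyte and eosinophil markers were low: T cell markers summed to 59.4 CPM in granule-rich and 131 CPM in the other S100-rich cells, B cell markers to 38.1 and 71.4 CPM, and 0 UMIs of the 6 eosinophil markers were found in granule-rich cells. Of the 12 tumour markers 10 had UMIs, at 159 against 110 CPM in sum, with Syp and Stmn2 at 0. Monocyte markers summed to 1927 against 1481 CPM, with 11 of 12 found and F13a1 at 0; Ly6c2, also known from young neutrophils, made 658 of the 1927 CPM. Macrophage markers summed to 1965 against 741 CPM, mostly through Chil3, with 9 of 12 found and C1qc, Mrc1 and Marco at 0. Dendritic cell markers summed to 853 against 1004 CPM, with Flt3, Xcr1, Clec9a and Siglech at 0, NK cell markers to 93.0 against 151 CPM and endothelial markers to 12.3 against 7.72 CPM. The part of these markers in the gene values below was not tested. Of the 311 cells, 10 were among the 138 highest doublet scores of the library, a fixed share of it, whereas the automatic threshold marked 5 cells in the whole library.

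Within the YKL-5-124 library, the 311 granule-rich cells were set beside the 352 other S100-rich cells, so that both came from 1 library. They held 892397 and 518016 UMIs in sum. Granule-rich cells were deeper, with a median of 2360 UMIs (594 to 10981) and 746 genes against 1341.5 UMIs and 561.5 genes. Their mitochondrial share was alike, at 0.37% and 0.39%. S100a8 and S100a9, used by the rule, took a median of 16.5% and 9.60% of UMIs. Every gene of this contrast was measured in the cells that the rule chose, so the values that follow describe the cells and support nothing about why they differ.

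Of 3578 genes that averaged 20 CPM or more over both sets, 117 were at least 2-fold higher in granule-rich cells (3.27%) and 201 at least 2-fold lower (5.62%), on the scale of log2(CPM + 10). Over all 3578 genes the median log2 ratio was -0.17. The 5 genes of the rule took 21.1% of UMIs in granule-rich cells and 9.69% in the others. With these genes left out of the totals the median was 0.0048, and 175 genes were higher and 150 lower, so that 53.8% of calls were higher instead of 36.8%.

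The 3 rule genes stood farthest apart. Ngp was at 38546 CPM in granule-rich cells (38139 to 38955) and 446 CPM in the others, Camp at 11193 and 15.4 CPM, and Ltf at 5301 and 1.93 CPM, the last from 1 UMI. Ngp was found in all 311 cells, Camp in 200 (64.3%), Ltf in 131 (42.1%) and all 3 in 127 (40.8%). Ngp alone thus carried many cells over the minimum.

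The secondary granule genes outside the rule were high as a group. Of 17 measured, 11 were at least 2-fold higher and 0 lower, with a median log2 ratio of 1.31. Chil3 was at 1568 CPM (1487 to 1652) in granule-rich cells and 27.0 CPM (14.8 to 45.3) in the others, a ratio of 58.0 (34.5 to 106). It was found in 37.6% of granule-rich cells, 2.84% of the others and 2.16% of B cell marker-bearing cells. Chil3 RNA was therefore concentrated in a subset, and 1 cell held 12.1% of its UMIs.

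Lcn2, lipocalin-2, which binds bacterial siderophores, was at 4992 CPM (4847 to 5141) against 1801 CPM, a ratio of 2.77 (2.58 to 2.98). Per cell, Lcn2 ran from 0 over a median of 10 to 133 UMIs in granule-rich cells and from 0 over 2 to 18 UMIs in the others. The 2 ranges overlapped at the low end, and 99.7% and 77.3% of cells had at least 1 Lcn2 UMI. Cd177, a surface glycoprotein of neutrophils, was at 910 against 98.5 CPM (9.24-fold, 6.96 to 12.5). Mmp8, neutrophil collagenase, was at 2524 against 1010 CPM (2.50-fold, 2.27 to 2.75), and Lyz2, lysozyme, at 13885 against 6459 CPM.

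Cybb, the catalytic subunit of the NADPH oxidase, was at 402 against 102 CPM (3.93-fold, 2.94 to 5.35). It was the only 1 of 6 measured oxidase genes past 2-fold: its membrane partner Cyba was at 2634 against 2112 CPM. Anxa1, Ceacam1, Ceacam10, Olfm4 and Orm1 completed the 11. Olfm4, olfactomedin-4, was found in 8.36% of granule-rich cells, and 1 cell held 27.5% of its UMIs. Hp, haptoglobin, was on the same list and was at 3605 against 4133 CPM.

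Of the primary granule genes, Mpo, Ctsg, Elane and Prtn3 were nearly absent, while 3 of the 9 genes of the list were measured and 1 was higher. Mpo and Ctsg had 0 UMIs among 892397 in granule-rich cells, Elane had 1 and Prtn3 had 13. In the other S100-rich cells they had 1, 1, 1 and 3 UMIs. At least 3 UMIs of these 4 genes were found in 3 of 311 granule-rich cells (0.965%) and in 0 of 352 others. They were also found in 2 of 788 B cell marker-bearing cells. In cells thinned to 800 UMIs the count was 0 of 309, with an exact upper limit of 1.19%. The 3 granule-rich cells had 8431 to 10981 UMIs and 3 to 6 Prtn3 UMIs each. Thinning would leave too few of those UMIs to reach the minimum, so the thinned count says little. The higher gene was Serpinb1a, an inhibitor of the proteases encoded by Elane, Ctsg and Prtn3. It was at 542 CPM (495 to 593) against 23.2 CPM, a ratio of 23.4 (13.3 to 45.6).

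Tertiary granule and secretory vesicle genes did not move as a group. Of 14 measured, 1 was 2-fold higher and 0 lower, and the median log2 ratio of -0.00387 turned positive with the rule genes out of the totals. The 1 gene was Retnlg, a resistin-like secreted protein, at 39236 against 18115 CPM (2.17-fold, 2.12 to 2.22). Retnlg ran from 2 over a median of 105 to 328 UMIs per granule-rich cell and from 0 over 17 to 153 UMIs in the others. Mmp9, gelatinase B, was at 815 against 485 CPM, and the formyl peptide receptor Fpr1 at 741 against 676 CPM.

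**Figure D2:**
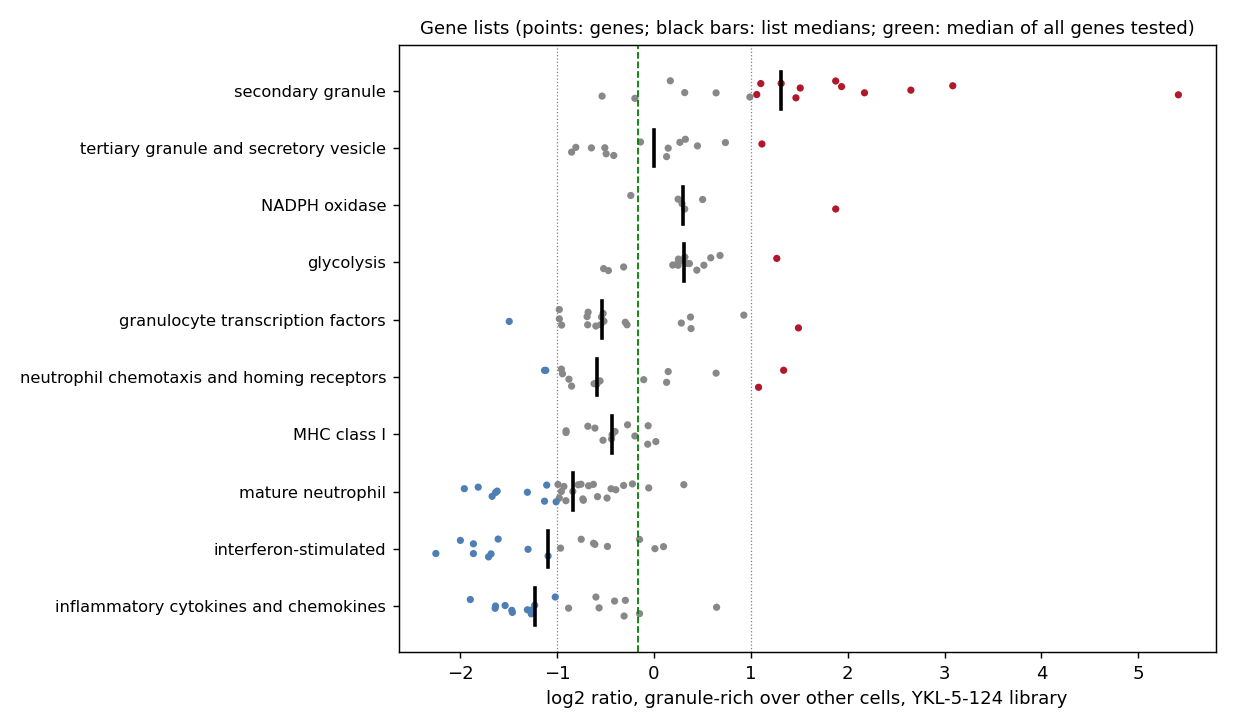
Log2 ratio of each measured gene (granule-rich over other S100-rich cells, YKL-5-124 library, log2(CPM + 10)), by fixed gene list, without rule genes; red is at least 2-fold higher, blue at least 2-fold lower. Secondary granule genes have a median of 1.31, and mature neutrophil, interferon-stimulated and inflammatory genes have medians of -0.84, -1.09 and -1.23, against -0.17 for all genes.

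Of 29 measured genes of mature neutrophils, 9 were at least 2-fold lower, 0 were higher and 20 were not called, with a median log2 ratio of -0.84 and a highest value of 0.31. With the rule genes out of the totals, 6 were lower. Csf3r, the receptor for G-CSF, was at 343 CPM (306 to 384) in granule-rich cells and 1073 CPM in the others, which were 3.13-fold higher (2.72 to 3.61). Cxcr2, the receptor through which neutrophils leave the marrow towards chemokines, was at 402 CPM in granule-rich cells and 892 CPM in the others. Wfdc17 was at 1104 against 4315 CPM and Ifitm1 at 771 against 2735 CPM. Ccl6, a chemokine of mature neutrophils, fell short of the call at 2908 against 5467 CPM.

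The chemotaxis and homing receptors went in different directions. Of 16 measured, 2 were higher, 2 were lower and the median log2 ratio was -0.59. Ltb4r1, the leukotriene B4 receptor, was at 362 against 137 CPM (2.64-fold, 2.04 to 3.46), and the sphingosine-1-phosphate receptor S1pr4 at 56.0 against 21.2 CPM. Cxcr2 and Selplg, a selectin ligand, were the lower pair. Cxcr4, the receptor that holds neutrophils in the marrow, was at 19.1 against 46.3 CPM from 17 and 24 UMIs.

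Inflammatory cytokine and chemokine genes gave 11 of 19 lower and 0 higher, with a median log2 ratio of -1.23. Il1b, interleukin-1 beta, was at 3715 CPM (3589 to 3843) against 11558 CPM, which was 3.11-fold higher in the others (2.98 to 3.25). Il1b ran from 0 over 9 to 55 UMIs per granule-rich cell and from 0 over 15 to 74 in the others, although the granule-rich cells were deeper. Nfkbia, an inhibitor of NF-kB that NF-kB induces, was at 1821 against 4409 CPM, and the chemokine receptor-like gene Ccrl2 at 300.3 against 890 CPM.

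Interferon-stimulated genes gave 9 of 17 lower and 0 higher, with a median log2 ratio of -1.09. Isg15, a ubiquitin-like protein, was at 133 CPM (110 to 160) against 450 CPM, and 17.4% and 28.7% of cells had a UMI. Rtp4 was at 61.6 against 276 CPM. Ifit3 had 2 UMIs in granule-rich cells and 25 in the others, which were 21.5-fold higher (5.37 to 188). MHC class I genes gave 0 calls in 13, with a median of -0.43, and glycolysis genes 1 of 16 higher (Hk3), with a median of 0.31. Of 18 genes of the endoplasmic reticulum and secretory pathway 1 was lower, the chaperone Hspa5, and of 5 S100 family genes outside the rule 0 were called.

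The 15 highest and 15 lowest log2 ratios, taken by 1 rule of level and detection, held several further surface and signalling genes. Itgb2l, a beta integrin-like gene of neutrophils, was at 235 against 21.2 CPM (11.1-fold, 6.07 to 22.5), and Anxa3, annexin A3, at 161 against 13.5 CPM (11.9-fold, 5.65 to 30.2). Ifitm6, an interferon-induced transmembrane family gene, was at 2966 against 593 CPM (5.0-fold, 4.45 to 5.65), whereas its relative Ifitm1 was lower. Acvrl1, a receptor of the TGF-beta family, was at 126 CPM against 1.93 CPM from 1 UMI, a ratio of 65.0 (11.4 to 2591), in 73 of the granule-rich cells.

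Adpgk, an ADP-dependent glucokinase, was at 313 against 40.5 CPM (7.71-fold, 4.95 to 12.7). Cdadc1, Ppp1r42 and Tst were also on the high side. On the low side, the stress response genes Ppp1r15a, Gadd45b and Atf3 were at 169, 63.9 and 40.3 CPM in granule-rich cells and 923, 293 and 156 CPM in the others. Fgl2, a fibrinogen-like protein, was at 122 against 670 CPM (5.48-fold higher in the others, 4.41 to 6.87). Hist1h2bc, a histone gene, was at 275 against 915 CPM, and Cd80, a costimulatory ligand, at 35.9 against 147 CPM.

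**Figure D3:**
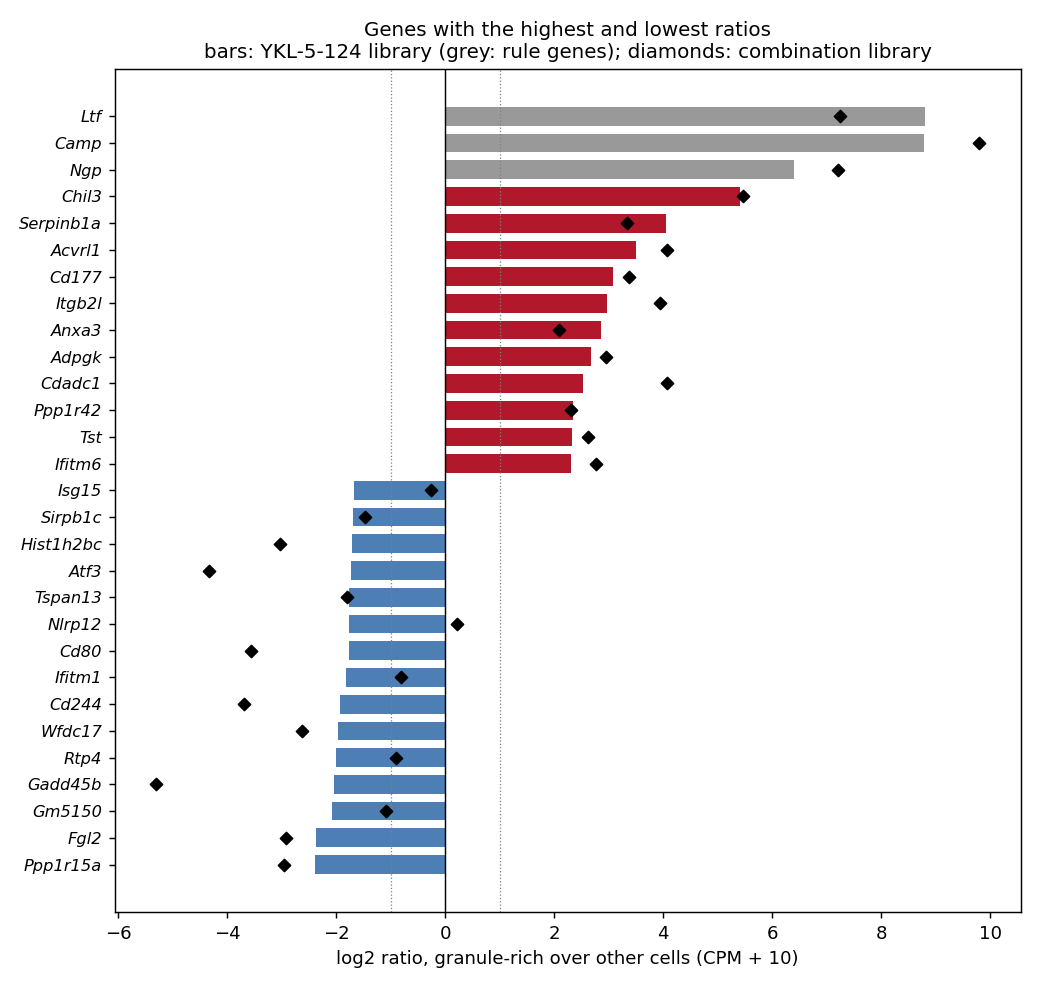
Log2 ratio (granule-rich over other S100-rich cells, CPM + 10) of the genes with the 14 highest and 15 lowest values in the YKL-5-124 library (bars; grey for rule genes), with the combination library as diamonds. The 11 high genes outside the rule lie above 1 in both libraries, and Nlrp12 is the low gene whose diamond lies right of 0; diamonds of genes with 0 UMIs on 1 side depend on the 10 CPM added and are not bounds.

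Among the granulocyte transcription factors 1 of 19 was higher and 1 lower. Cebpe was at 94.1 CPM (75.1 to 117) against 27.0 CPM, a ratio of 3.48 (1.97 to 6.64), and 1 cell held 19.0% of its UMIs. Cebpd was at 25.8 against 90.7 CPM. Spi1, which encodes PU.1, was at 1365 against 1990 CPM, short of the call. Cdk7, the target of YKL-5-124, had 2 UMIs in granule-rich cells and 5 in the others, too few for a comparison.

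At equal depth the shares of cells with cell cycle RNA overlapped within counting error. In cells thinned to 800 UMIs, 22.7% (18.1% to 27.7%) of 309 granule-rich cells and 28.8% (24.0% to 34.0%) of 330 others carried 3 or more UMIs from the G2/M list. Cells with T cell markers in the same library gave 24.0% and those with B cell markers 13.8%. Unthinned, the shares were 76.2% and 59.1%, at the unequal depths above. In sums, Ube2c, Birc5 and Top2a of 13 measured G2/M genes were at least 2-fold higher, and Nasp and Rrm2 of 5 measured G1/S genes.

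Most UMIs of core cycle genes lay in few granule-rich cells. Over 12 core cycle genes, a set chosen after the wider lists had been seen, granule-rich cells had 295 UMIs, and 7 cells had at least 5. The other S100-rich cells had 40 such UMIs, at most 2 per cell. Of those 7 cells 3 held 177 of the 295 UMIs. These 3 were picked, after their values were seen, by at least 5 core cycle UMIs and a UMI each of Fcnb, Ms4a3 and Prtn3. They were deep, at 10981, 8789 and 8431 UMIs, with 1921, 1378 and 1117 UMIs of Camp, Ngp and Ltf, and the one with 8431 UMIs had a high doublet score.

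The same 3 cells held most UMIs of some neutrophil precursor markers and few or none of others. Mpo and Ctsg had 0 UMIs in them and Elane had 1. Chil5, on the same marker list, had 0 UMIs in them and 35 UMIs in 32 of the remaining 308 granule-rich cells. That was 40.5 CPM, against 1.93 CPM in the other S100-rich cells. The 3 cells held 84.1% of the Fcnb UMIs of granule-rich cells (ficolin B, at 18, 13 and 27 UMIs), 90.5% of Ms4a3 and 92.3% of Prtn3. Those 3 genes helped to pick the cells, so these shares support nothing. The cells had 0 UMIs of Il1b and Csf3r, and also held 28.9% of Chil3 and 32.1% of Cebpe. Without them, Fcnb was at 12.7 CPM, Ube2c at 10.4 CPM and Birc5 at 17.4 CPM, against 0, 11.6 and 11.6 CPM in the other S100-rich cells. Rrm2, of whose UMIs the 3 cells held 63.2%, was at 16.2 CPM without them, against 11.6 CPM. Top2a was at 27.8 CPM and Nasp at 30.1 CPM without them, from 11 and 16 cells, both against 7.72 CPM, and Chil3 was still at 1151 CPM. Of the 7 cells, those with 9510 and 5528 UMIs had 29 and 7 UMIs of SCLC tumour markers and high doublet scores.

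Granule-rich cells differed widely among themselves. With YKL-5-124, Camp, Ngp and Ltf took from 0.0675% over a median of 1.86% to 21.8% of a cell's UMIs, or 5 over 40 to 1921 UMIs. By count, 43 cells had under 10 granule UMIs, 84 had 10 to 29, 82 had 30 to 99 and 102 had 100 or more. The cells were put into 3 bins of 104, 104 and 103 by this share, at median depths of 2040, 2079.5 and 3084 UMIs. The other S100-rich cells were divided into 214 with 0 granule UMIs and 138 with 1 to 4. The bins use rule genes, so they order the cells and test nothing.

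Several genes differed step by step along this order. Lcn2 was at 1414 CPM in others without granule UMIs, 2342 in others with 1 to 4, then 2720, 4038 and 7236 in the 3 bins of granule-rich cells. Cd177 was at 82.8, 120, 312, 828 and 1383 CPM in the same order. Ifitm6 went from 507 CPM to 4414 and Ly6g, the surface antigen used to stain mouse neutrophils, from 89.4 to 662 CPM.

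Another group was high in the bin with the highest granule share and much lower in every other. Chil3 was at 13.2 and 46.3 CPM in the others and at 143, 173 and 3530 CPM in the bins. Serpinb1a was at 77.1, 181 and 1118 CPM over the bins, and Cebpe at 23.1, 27.0 and 190 CPM. Cebpe was therefore not raised in the lower bins, where it was close to the 29.8 and 23.1 CPM of the others. Fcnb was at 185 CPM in the top bin with 0 UMIs in each of the other 4 sets, and Orm1 was at 150 CPM there. The 3 picked cells above lay in the top bin and held 58 of its 69 Fcnb UMIs. They also held 27 of its 71 Cebpe, 18 of 56 Orm1, 404 of 1317 Chil3 and 69 of 417 Serpinb1a UMIs.

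Retnlg followed neither pattern. It was at 13272 and 24885 CPM in the others, 36974 in the low bin, 50309 in the middle bin (49450 to 51179) and 33100 in the high bin (32519 to 33689). Mmp8 differed less between the upper bins, with 1680, 2760 and 2946 CPM over the bins. The tertiary granule list summed to 47513, 62651 and 42848 CPM, a peak that Retnlg carried.

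Several mature and inflammatory genes ran the other way. Il1b was at 12203 and 10656 CPM in the others and at 5718, 4685 and 1646 CPM over the bins. Csf3r was at 1083, 1060, 539, 373 and 185 CPM, and Fgl2 at 788, 505, 250.5, 127 and 29.5 CPM. Ccl6 kept near the others' level in the low and middle bins (4967 and 4019 against 5285 and 5721 CPM) and was at 702 CPM in the high bin. Wfdc17 had its step earlier, at 2416, 797 and 405 CPM over the bins. Spi1 was at 1622, 1640 and 994 CPM.

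**Figure D4:**
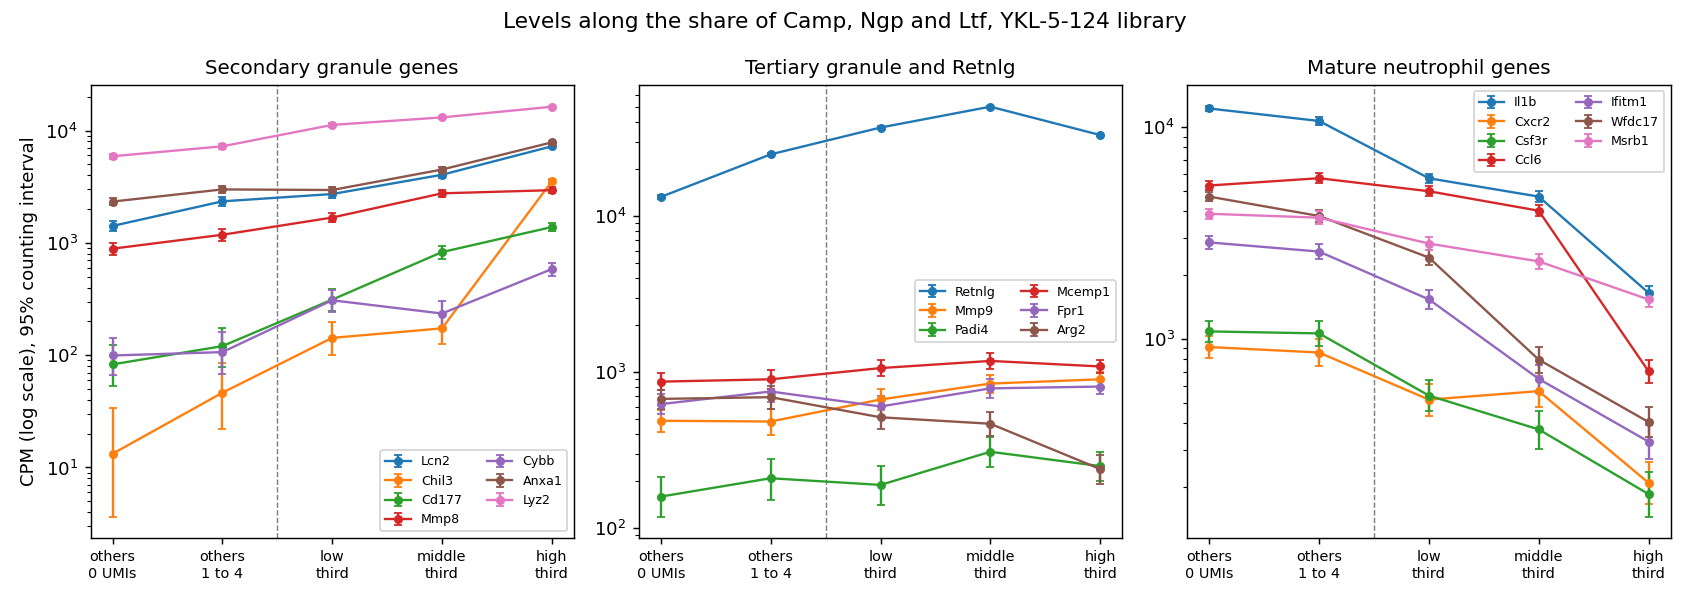
CPM (log scale, with 95% counting intervals) of single genes in the YKL-5-124 library, in other S100-rich cells with 0 or 1 to 4 granule UMIs and in 3 bins of granule-rich cells ordered by their share of Camp, Ngp and Ltf; the dashed line separates the 2 kinds of cells. Lcn2 climbs from 1414 to 7236 CPM, Retnlg peaks at 50309 CPM in the middle bin, and Il1b goes down from 12203 to 1646 CPM.

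At the minimum of the rule the cells graded into each other. The 35 cells with 5 to 7 granule UMIs had a median of 1630 UMIs and the 63 with 2 to 4 had 1462. Retnlg was at 36002 and 27947 CPM in them, Il1b at 7917 and 10160, Lcn2 at 2791 and 2611 and Ly6g at 338 and 177 CPM. Mmp8, Chil3 and Camp were lower just inside the rule than just outside, at 1175 and 1380, 29.4 and 59.1, and 44.1 and 49.3 CPM. No interval was computed for these values, and those of Chil3 and Camp rest on too few UMIs to give a direction. In the combination 0 cells had 5 to 7 granule UMIs and 10 had 2 to 4.

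The 10 granule-rich cells of the combination had 10 to 275 granule UMIs (median 61), at depths of 1343 to 6034 UMIs. Ngp was found in 10 of them, Camp in 8 and Ltf in 7. They held 25425 UMIs in sum. Against the 137 others of that library, 24% of 3601 genes were past 2-fold higher and 21.2% past 2-fold lower, so a call there says little. Of the 12 high genes outside the rule 12 were at least 2-fold higher there too, and of the 15 low genes 11 were at least 2-fold lower. Acvrl1, Cdadc1 and Ppp1r42 had 0 UMIs in the others, and Gadd45b, Cd244, Cd80 and Atf3 had 0 in the granule-rich cells, so their ratios rest on the 10 CPM added.

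In these 10 cells the main genes lay on the same side of the others as under YKL-5-124. Chil3 was at 669 CPM from 17 UMIs, of which the deepest cell held 12, against 5.43 CPM in the others. Lcn2 was at 3894 against 1092 CPM, Retnlg at 43736 against 10679 CPM, Il1b at 4484 against 13037 CPM and Csf3r at 275 against 1087 CPM. Fcnb, Ms4a3, Prtn3, Elane, Mpo and Ctsg had 0 UMIs, and so had Olfm4. Nlrp12 was the low gene with the opposite sign, at 39.3 CPM from 1 UMI against 32.6 CPM. Isg15, Rtp4 and Ifitm1 were lower there too but short of 2-fold, at log2 ratios of -0.25, -0.90 and -0.81.

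The other S100-rich cells of the 4 libraries gave the level without the granule-rich cells. Lcn2 in them was at 429 CPM in control, 589 under anti-PD-1, 1092 in the combination and 1801 under YKL-5-124. Ifitm6 was at 252.5, 270.1, 446 and 593 CPM and Retnlg at 13069, 12227, 10679 and 18115 CPM in that order. Il1b was at 14383, 13896, 13037 and 11558 CPM. Lcn2, Ifitm6 and Retnlg were thus highest and Il1b lowest in the other S100-rich cells under YKL-5-124. Of those cells 39.2% had 1 to 4 granule UMIs, against 2.56% in control. In the 214 with 0 granule UMIs Retnlg was at 13272 CPM, close to control, Lcn2 at 1414, Ifitm6 at 507 and Il1b at 12203 CPM. S100a8 and S100a9 RNA in barcodes of 10 to 100 UMIs was also highest under YKL-5-124, at 4352 CPM against 1088 in control. It was at 1287 CPM under anti-PD-1 and 1362 CPM in the combination. The part of free RNA in the levels of these genes was not tested.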

How the data were processed

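Droplet-based 3' RNA libraries (kit version 2, per the labels' protocols) were analysed, 1 for each of 4 groups. The values are the raw UMI counts that the authors deposited, for all barcodes and not for cells alone. They were made with bcl2fastq and Cell Ranger, per the submitters' processing notes, and software version 3.0.0, per the file headers. The notes name the human build hg19, but all gene IDs are mouse Ensembl IDs; the sources used here do not give the annotation release. Of 31053 IDs, 30934 were found in GENCODE M21.

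Cells were chosen by the rule stated in the report, with no doublet removal in the main values. Scrublet in Scanpy 1.11.5 marked under 0.5% of each library by its automatic threshold, so the highest scores, 0.8% per 1000 cells, were left out as an alternative. UMIs were summed over cells and divided by the total (CPM). Levels have exact Poisson intervals, ratios exact conditional ones and shares exact binomial ones (Clopper-Pearson). Log2 ratios used a pseudocount of 10 CPM. Genes under 20 CPM in the mean of both sets were left out, and 2-fold was a rule of size, not a test. With 1 library per group no test was possible. Cells of other types were taken from outside the S100-rich cells by at least 3 UMIs of their markers. The ratio step was tested on simulated counts.

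Named genes are the 15 highest and 15 lowest log2 ratios among genes with at least 50 CPM in either set, 50 UMIs in both together and a UMI in at least 10% of cells of the higher set; genes of mitochondria, ribosomal proteins, sex chromosomes, antigen receptors and haemoglobin were left out, and some genes are not reported here. The cells, gene lists and markers were chosen with earlier results of these data known. The scripts used pandas 2.3.3, SciPy 1.17.1, NumPy 2.4.6 and Matplotlib 3.10.9 under Python 3.11.15.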

Additional observations from a re-analysis of the deposited data

Results flagged for a closer look

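Some signal lay in barcodes or cells that the comparisons did not use. In barcodes of 10 to 100 UMIs, Camp, Ngp and Ltf made 1560 CPM with YKL-5-124 against 449 in control, a ratio of 3.48 (3.28 to 3.68), while the primary granule genes were at 469 and 434 CPM.

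Among S100-rich barcodes of 100 to under 500 UMIs, 53 with anti-PD-1 and 37 in the combination had at least 5 UMIs of Camp, Ngp and Ltf, against 29 in control and 18 with YKL-5-124. Of the 53, 24 were granule-rich cells in the YKL-5-124 library by barcode, and of the 37, 17 were. In control this held for 14 of the 29, and all 29 barcodes had at least 5 granule UMIs in each of the other libraries.

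Outside the S100-rich cells, 31 cells of the YKL-5-124 library had 3 or more UMIs from Mpo, Elane, Ctsg and Prtn3, with 1674 in sum. Such cells numbered 3 in control, with 10 UMIs in sum, 5 with anti-PD-1 and 6 in the combination. These 31 cells had a median depth of 5806 UMIs, a median S100a8 and S100a9 share of 0% and 4 UMIs of Camp, Ngp and Ltf in sum.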

How the results depend on the processing

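The number of granule-rich cells ranged over all settings from 249 to 342 with YKL-5-124 and from 9 to 15 in the combination. With an S100a8 and S100a9 minimum of 1%, control and anti-PD-1 each had 1 such cell in place of 0. The count of higher genes was 43 with a pseudocount of 50 CPM, 193 with no CPM minimum and 865 in the combination library, against 117. The count of lower genes was 309 after thinning to 800 UMIs, 320 with a pseudocount of 1 CPM, 59 with 50 CPM and 764 in the combination library, against 201. The share of granule-rich cells with mitotic RNA was 2.27% at a minimum of 5 UMIs and 76.2% without thinning. Of 30 named genes, 29 kept their direction under all 17 settings, and Nlrp12 had a log2 ratio of 0.21 in the combination library. The secondary granule list had 8 to 12 higher genes, the mature list 6 to 12 lower, the interferon list 3 to 14 and the inflammatory list 7 to 13. Leaving out shared barcodes gave 114 higher and 208 lower genes. Leaving out the 3 cells picked by core cycle genes, Fcnb, Ms4a3 and Prtn3 gave 106 and 196. Both settings were chosen after seeing the data. The causes were not tested. No paired analysis was possible because each group has 1 library. At these depths, genes with few UMIs, such as Cdk7, Mpo and Elane, could not be compared.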
